A study of Mus musculus with 14 samples.

Results

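The Hox genes are the homeobox genes of the HoxA, HoxB, HoxC and HoxD clusters, and they were taken here as every gene whose symbol is Hoxa, Hoxb, Hoxc or Hoxd followed by a number alone. The mouse annotation holds 39 of them, and 27 had a row among the 24346 genes of the count table. The other 12, which are Hoxa3, Hoxa4, Hoxa5, Hoxa6, Hoxa11, Hoxa13, Hoxb9, Hoxb13, Hoxd1, Hoxd4, Hoxd9 and Hoxd13, had no row in the tables used here and count as not expressed. The lowest row sum in the count table was 1 read, and 10 Hox genes reached 10 counts in at least 2 libraries and could be tested. Hoxb8 lay just outside, with 14 counts in 1 library and at most 6 in every other.

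Hox proteins are transcription factors that give cells along the head-to-tail axis and the limb axis a regional identity. Their genes lie in each cluster in the order of their expression along the body, with low paralog numbers active toward the head and high numbers toward the tail and the limb tip, and skeletal cells can keep this Hox code in culture. Bone of the face and most of the skull vault forms from Hox-negative cells, while bone of the trunk and limbs comes from Hox-positive mesoderm. Hox proteins bind DNA with Pbx and Meis partners, and Polycomb and Trithorax proteins keep the clusters silent or active.

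RNA was sequenced from MC3T3-E1, an osteoblast line derived from mouse calvaria, in 14 libraries. The groups were control cells and cells labelled as a knockdown of MACF1, a protein that links microtubules to actin, each at days 0, 3 and 5 with 2 libraries and at day 10 with 1. The sample titles mark control as NC and knockdown as sh, and the sources used here do not spell out the knockdown method further. They also do not give the event from which days are counted or the number of clones. The design text speaks of biological replicates, but no source says that they came from separate cultures, so the spread that a p measures here may be technical.

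Library totals ran from 8044687 to 23301514 counts, of which 132 to 369 per library fell on Hox genes. Macf1 served as the check of the labels and did not separate them: it measured 154 to 205 CPM (counts relative to the scaled library size) in 6 control libraries, 55.2 CPM in control day 3 replicate 2 and 129 to 181 CPM in the 7 libraries labelled knockdown, with a log2 difference of 0.13 ± 0.24 (SE; edgeR quasi-likelihood test, adjusted p = 0.724; without that control library -0.08 ± 0.06, edgeR adjusted p = 0.274). Directions below are therefore those of the libraries labelled knockdown. Control day 3 replicate 2 was the shallowest library and stood apart from its partner, with a correlation of 0.924 where other pairs had 0.987 to 0.989, so the cluster sums, counts and ratios that it moves most are also given without it. The osteoblast label was checked on its markers: all 12 osteoblast genes passed the filter, at a summed 17008 to 34472 CPM in control and 13921 to 27610 CPM in the libraries labelled knockdown. These sums are mostly matrix genes, and 9 of the 12 differed between the conditions averaged over days 0, 3 and 5 (4 higher and 5 lower). That is 75%, against 26.9% of all genes tested. Ibsp, a bone matrix protein, had a control median of 1163 CPM against 92.3 CPM under the knockdown label, and Alpl, the alkaline phosphatase of bone, one of 99.9 CPM against 20.2 CPM. Other osteoblast genes had the higher median under the knockdown label. For Phex it was 22.7 CPM against 1.402 CPM in control, and for Dmp1 75.4 CPM against 20.1 CPM. The part of these osteoblast genes in the Hox differences was not tested.

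The upstream sequences of 4 HoxA genes are shown because HoxA carried most Hox reads and only some of its members passed the test. Hoxa7 and Hoxa10 passed and were lower in the libraries labelled knockdown, while Hoxa2 and Hoxa9 did not pass with all libraries. Hoxa2 also had a ratio of summed counts below 1 (0.621), and that of Hoxa9 was 1.06. Each is the 250 bases before a transcript start from RefSeq (GRCm38.p6, minus strand of chromosome 6, written 5′ to 3′ as transcribed), with every CG dinucleotide in capitals. The Hoxa2 window lies at chr6:52164832-52165081, that of Hoxa7 at chr6:52218574-52218823, that of Hoxa9 at chr6:52227371-52227620 and that of the first Hoxa10 start at chr6:52240855-52241104.
Hoxa2: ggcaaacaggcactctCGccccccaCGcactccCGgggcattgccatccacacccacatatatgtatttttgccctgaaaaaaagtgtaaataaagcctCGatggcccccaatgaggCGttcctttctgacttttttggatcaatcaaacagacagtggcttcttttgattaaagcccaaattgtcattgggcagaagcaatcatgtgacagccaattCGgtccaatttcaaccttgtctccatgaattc
Hoxa7: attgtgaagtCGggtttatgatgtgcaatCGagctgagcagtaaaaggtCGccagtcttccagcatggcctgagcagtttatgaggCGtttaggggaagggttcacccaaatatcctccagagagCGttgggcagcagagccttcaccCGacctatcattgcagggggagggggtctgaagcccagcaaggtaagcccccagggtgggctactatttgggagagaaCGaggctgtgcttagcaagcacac
Hoxa9: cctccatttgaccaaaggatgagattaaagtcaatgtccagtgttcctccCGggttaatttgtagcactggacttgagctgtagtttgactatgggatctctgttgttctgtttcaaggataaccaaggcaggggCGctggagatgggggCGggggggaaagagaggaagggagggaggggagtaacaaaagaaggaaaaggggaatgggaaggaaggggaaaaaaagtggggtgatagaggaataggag
Hoxa10: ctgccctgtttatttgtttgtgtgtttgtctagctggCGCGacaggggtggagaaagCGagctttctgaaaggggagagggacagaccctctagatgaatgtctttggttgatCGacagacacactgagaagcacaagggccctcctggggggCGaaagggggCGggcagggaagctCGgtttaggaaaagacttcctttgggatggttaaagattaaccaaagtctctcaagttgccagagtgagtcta
In these windows Hoxa9 has 3 CG dinucleotides, Hoxa2 has 6, and Hoxa7 and Hoxa10 have 7 each, against a median of 6 over all 32851 windows. The window of another Hoxa10 start (chr6:52234940-52235189), not printed here, has 20, more than 82.05% of all windows. The Pbx-Hox motif TGATNNAT, searched on both strands, lies once in the Hoxa2 window, 111 bases before the start, and in none of the other 3 printed. It is found in 7.68% of all windows and in 4 of the 24 windows of Hox genes. TTTATNG, a form that Hox proteins of high paralog number bind, is in none of these 4 windows, in 2 of the 24 and in 9.81% of all. RefSeq windows were at hand for 22 of the 39 Hox genes.

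The libraries held a low and uneven Hox code. Hoxa10, a paralog that patterns the thigh and lower trunk, was the most abundant Hox transcript per length, with a mean of 1.80 RPKM (reads relative to gene length and library size). That level is at the 25.0 percentile of the genes tested. Hoxa2, which patterns the hindbrain and second pharyngeal arch, followed with 1.08 RPKM. Next came Hoxa7 (0.589 RPKM) and Hoxa9 (0.346 RPKM), so the leading places were all held by HoxA genes. The highest HoxB gene was Hoxb6 at 0.288 RPKM, the highest HoxC gene Hoxc4 at 0.168 RPKM and the highest HoxD gene Hoxd11 at 0.0736 RPKM.

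By paralog position, the levels did not rise or fall steadily from 1 to 13. Paralog group 10 held 1377 of the Hox counts over the 14 libraries, of which Hoxa10 gave 1372. Groups 2, 9 and 7 followed with 458, 348 and 321 counts, each led by its HoxA gene. Groups 11, 12 and 13, which pattern the forearm, hand and foot, held 22, 3 and 7 counts in all. At those counts neither presence nor a difference between conditions could be read for these groups.

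**Figure D1:**
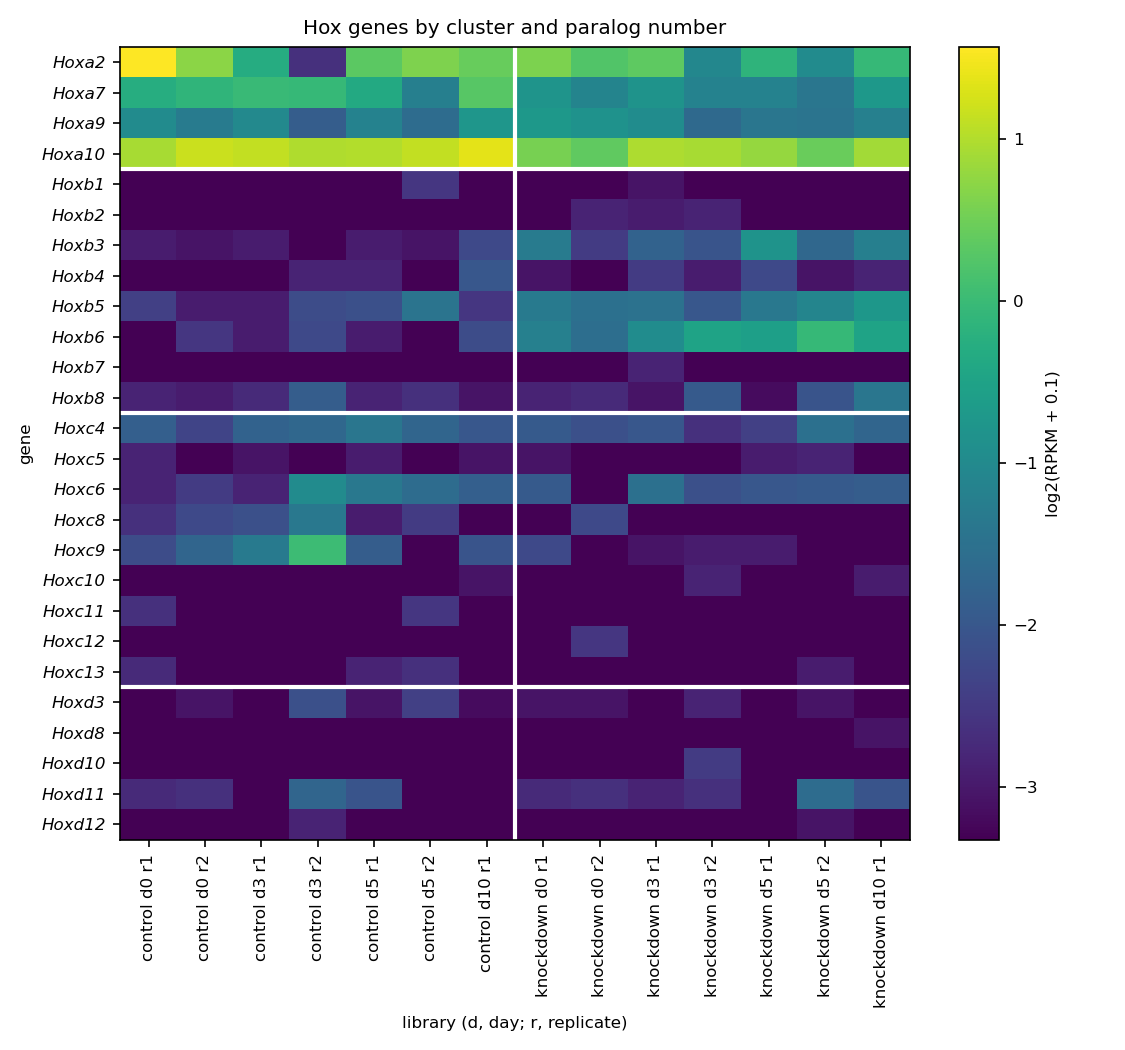
Deposited expression of 26 Hox genes, as log2(RPKM + 0.1), in 14 libraries. Rows run by cluster and paralog number, columns by condition and day, and white lines part the clusters and the conditions. Hoxa10 is bright in every column, while Hoxb3, Hoxb5 and Hoxb6 brighten in the columns labelled knockdown.

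HoxB was higher in the libraries labelled knockdown. Over its 8 genes with a row, the summed level was 0.348 to 1.32 CPM in the 7 control libraries and 1.46 to 4.59 CPM in the 7 labelled knockdown, so the groups did not overlap. HoxA went the other way, with 11.8 to 16.6 CPM in control and 6.98 to 10.9 CPM in the libraries labelled knockdown, again without overlap. HoxC summed to 1.11 to 5.29 CPM in control (1.11 to 2.01 CPM without control day 3 replicate 2) and to 0.495 to 1.14 CPM in the libraries labelled knockdown. HoxD stayed at or under 1.03 CPM in every library, and at or under 0.403 CPM without control day 3 replicate 2. In RPKM, HoxB made up 2.17% to 7.71% of all Hox expression in control and 14.9% to 33.9% in the libraries labelled knockdown, while the HoxA share was 53.8% to 89.7% (77.1% to 89.7% without control day 3 replicate 2) against 50.3% to 76.2%. These sums are descriptions with no test. In bulk RNA, fewer cells that express a gene and less RNA per cell cannot be told apart.

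**Figure D2:**
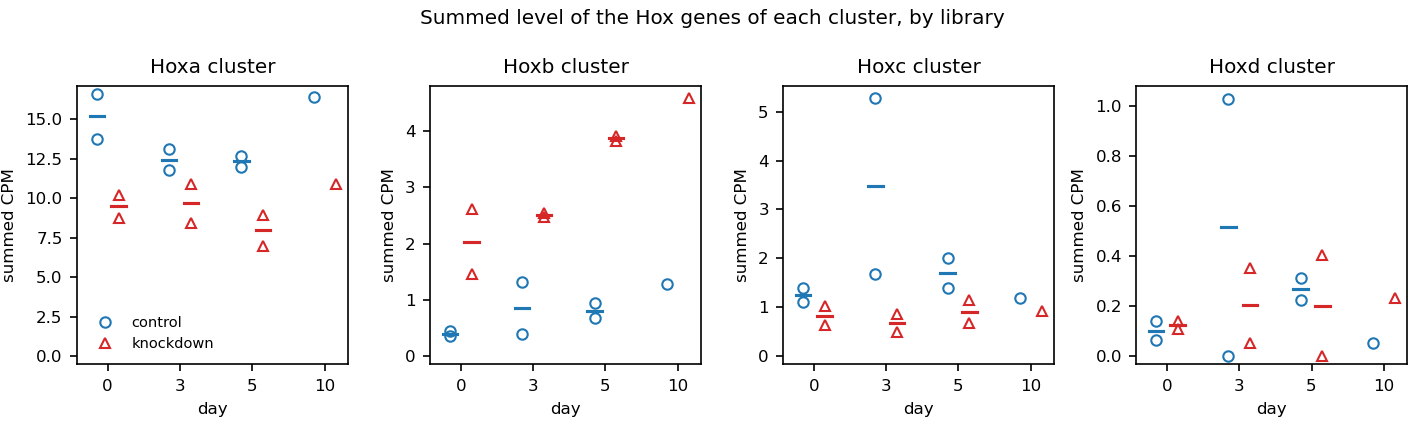
Summed CPM of the Hox genes with a row in each cluster, by day, with circles for control and triangles for libraries labelled knockdown, 1 point per library, and bars at the mean of the 2 replicates of a day. HoxA points labelled knockdown lie below all control points, HoxB points lie above them, and 1 control library of day 3 stands out in HoxC and HoxD.

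Averaged over days 0, 3 and 5, 6 of the 10 Hox genes tested differed between the conditions, 3 higher and 3 lower in the libraries labelled knockdown (edgeR quasi-likelihood test, Benjamini-Hochberg adjustment over all genes). Of all 13130 genes tested, 26.9% differed in that comparison, 15% higher and 11.9% lower. Hoxb3, Hoxb5 and Hoxb6 reached 10 counts only in libraries labelled knockdown, and Hoxc9 only in control libraries, so these genes could enter the test only through the side on which they were high. With no filter on low counts, 5 of the 27 Hox genes differed, among them Hoxb3 and Hoxb6, where 16.8% of all 24346 genes did. Without control day 3 replicate 2, 6 of 9 tested Hox genes differed, and 47.1% of all genes did. Only Hoxb3 and Hoxb6 passed in the fits without knockdown day 0 replicate 2, day 3 replicate 2 or day 5 replicate 2, and 3 Hox genes (these and Hoxa7) in those without control day 0 replicate 2 or knockdown day 3 replicate 1.

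Hoxb6, a homeobox gene of the trunk (chr11:96292476-96301569, plus strand, GRCm38), showed the largest fitted difference among the Hox genes tested. Control measured 0 and 0.139 CPM on day 0, then 0.0643 and 0.294 on day 3, 0.0558 and 0 on day 5, and 0.256 in the single library of day 10. The libraries labelled knockdown measured 0.706 and 0.487 CPM on day 0, then 0.859 and 1.20 on day 3, 1.22 and 1.81 on day 5, and 1.34 on day 10. Every one of these lies above every control library. Summed over days 0, 3 and 5, that is 110 counts against 6, a ratio of 14.5 (95% interval 6.45 to 40.4, counting error only), and 19.96 (7.58 to 74.6) without control day 3 replicate 2. The fitted log2 difference was 3.69 ± 0.56 (SE, adjusted p = 0.00117 in edgeR's quasi-likelihood test). Among the genes tested, 8.64% had non-overlapping libraries in either direction, 5.48% with the libraries labelled knockdown higher.

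Hoxb3, which acts in the hindbrain and pharyngeal region (chr11:96323326-96347930, plus strand), followed the same direction. Control libraries measured 0.126 and 0.0695 CPM on day 0, then 0.129 and 0 on day 3, 0.112 and 0.0779 on day 5, and 0.410 on day 10. Those labelled knockdown measured 1.14 and 0.278 CPM on day 0, then 0.708 and 0.495 on day 3, 1.77 and 0.806 on day 5, and 1.28 on day 10. Within each day the groups were apart, but the lowest library labelled knockdown lay under the day 10 control. The summed counts were 100 against 8, a ratio of 9.88 (95% interval 4.83 to 23.5). The log2 difference was 3.05 ± 0.56 (SE, edgeR adjusted p = 0.00349). Both Hoxb3 and Hoxb6 kept their calls in all 21 alternative fits.

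Hoxb5, a trunk and lung-level gene between them (chr11:96303336-96306121, plus strand), was also higher, but only just. It had 0.0643 to 0.545 CPM in control, with a median of 0.190, and 0.283 to 1.05 CPM in the libraries labelled knockdown, with a median of 0.589, and the ranges overlap. The summed counts of 57 against 19 give a ratio of 2.37 (95% interval 1.39 to 4.22). Its log2 difference was 1.38 ± 0.45 (SE, edgeR adjusted p = 0.0444), and the call held in 6 of 21 alternatives, where the adjusted p ran from 0.0164 to 0.134.

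The other HoxB genes were too low to test. Hoxb4 had 14 summed counts against 3 (ratio 3.69, 95% interval 1.03 to 20.02), but at day 10 the control library held 8 and the library labelled knockdown 2. Hoxb8 had 18 against 13 (ratio 1.09, 0.507 to 2.43) over days 0, 3 and 5, and 14 against 1 at day 10. Hoxb1 and Hoxb2 had 3 counts each and Hoxb7 had 1 over the 14 libraries. Across the cluster, 4 of the 8 rows had a counting interval wholly above 1 (Hoxb3 to Hoxb6), and none had one wholly below. These intervals leave out the spread between replicates, which was larger than sampling noise. The share of all genes with such an interval was not counted, so the 4 rows are a description only.

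**Figure D3:**
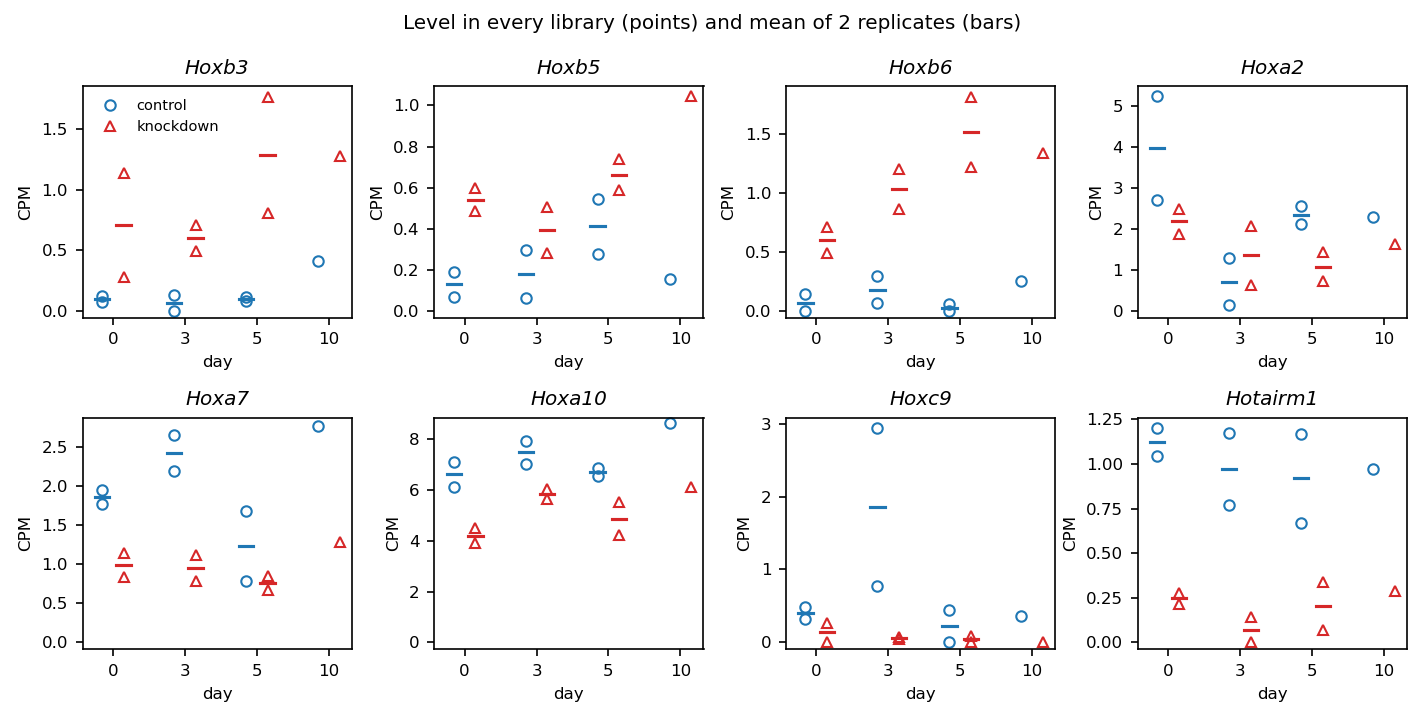
CPM of 7 Hox genes and the noncoding RNA Hotairm1 by day, with circles for control and triangles for libraries labelled knockdown, 1 point per library, and bars at the mean of 2 replicates. Hoxb6 and Hoxa10 do not overlap between conditions, the first higher and the second lower in the libraries labelled knockdown, and the control of 2.94 CPM at day 3 stands above all other points of Hoxc9.

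In the HoxA cluster the calls were toward lower levels. Hoxa10 (chr6:52231197-52240854, minus strand) measured 6.13 and 7.09 CPM in control on day 0, then 7.01 and 7.93 on day 3, 6.53 and 6.86 on day 5, and 8.61 on day 10. The libraries labelled knockdown measured 4.51 and 3.90, 6.02 and 5.66, 5.51 and 4.23, and 6.10 CPM on those days. The groups did not overlap, though the highest library labelled knockdown (6.10 CPM) and the lowest control (6.13 CPM) were close. Among the genes tested, 3.17% were lower without overlap. The log2 difference was -0.48 ± 0.13 (SE, edgeR adjusted p = 0.0207), a ratio of summed counts of 0.742 (95% interval 0.658 to 0.836). It is a small difference of the best-measured Hox gene, and it passed in 13 of 21 alternatives, with adjusted p from 0.00519 to 0.0769.

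Hoxa7, a trunk-level gene (chr6:52214491-52221854, minus strand), had 0.779 to 2.77 CPM in control, with a median of 1.95. In the libraries labelled knockdown it had 0.671 to 1.28 CPM, with a median of 0.841. The libraries of days 0, 3 and 10 were apart and those of day 5 overlapped. The summed counts were 96 against 148 (ratio 0.513, 95% interval 0.392 to 0.667), and the log2 difference was -0.97 ± 0.26 (SE, edgeR adjusted p = 0.0192). The call held in 16 of 21 alternatives.

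Hoxa2 and Hoxa9 did not pass with all libraries. Hoxa2 measured 5.25 and 2.71 CPM in control on day 0, then 1.29 and 0.147 on day 3, 2.12 and 2.57 on day 5, and 2.31 on day 10. The libraries labelled knockdown measured 2.50 and 1.88, 2.07 and 0.636, 1.43 and 0.739, and 1.63 CPM on those days. Control day 3 replicate 2 held a single read of it, and its log2 difference was -0.40 ± 0.40 (SE, edgeR adjusted p = 0.497). The ratio of its summed counts was 0.621 (95% interval 0.504 to 0.763, counting error only), and in the fit without day 3 it passed, with a log2 difference of -0.95 (edgeR adjusted p = 0.0250). Hoxa9 had 0.735 to 1.74 CPM in control and 0.707 to 1.74 CPM in the libraries labelled knockdown, with a log2 difference of 0.09 ± 0.28 (SE, edgeR adjusted p = 0.839) and a ratio interval of 0.809 to 1.40. Hoxa9 thus lay between Hoxa7 and Hoxa10 on the chromosome with a counting interval that took in 1, while theirs were wholly below it.

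HoxC was low in both conditions. Hoxc9, a gene of the lower thorax (chr15:102976439-102985099, plus strand), measured 0.316 and 0.487 CPM in control on day 0, then 0.771 and 2.94 on day 3, 0.447 and 0 on day 5, and 0.359 on day 10. The libraries labelled knockdown measured 0.272 and 0, 0.0506 and 0.0707, 0.0841 and 0, and 0 CPM on those days. Control day 3 stood highest and the ranges overlap, and over days 0, 3 and 5 there were 9 counts against 52 (ratio 0.137, 95% interval 0.0593 to 0.280). Without control day 3 replicate 2 the ratio was 0.204 (0.0857 to 0.438). The log2 difference was -2.74 ± 0.85 (SE, edgeR adjusted p = 0.0385). Only the day 3 control libraries reached 10 counts, so the gene left the test when either was left out, and the call held in 9 of 18 alternatives. With the replicate number as a block the edgeR adjusted p was 0.0572.

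The other HoxC genes and HoxD gave no call. Hoxc8, the neighbour of Hoxc9, had 3 counts against 17 over days 0, 3 and 5 (ratio 0.140, 95% interval 0.0262 to 0.482, and 0.181, 0.0329 to 0.673, without control day 3 replicate 2), with reads in 6 of 7 control libraries and in 1 labelled knockdown. Hoxc4, a neck-level gene, had 0.278 to 0.782 CPM in control and 0.141 to 0.671 CPM in the libraries labelled knockdown (log2 difference -0.55 ± 0.41 SE, edgeR adjusted p = 0.348). Hoxc6 had 0.0632 to 0.882 CPM in control and 0 to 0.404 CPM in the libraries labelled knockdown, a ratio of 0.856 with an interval of 0.473 to 1.56, and of 1.05 (0.553 to 2.03) without control day 3 replicate 2. In HoxD, Hoxd11 had 0 to 0.294 CPM in control and 0 to 0.269 CPM in the libraries labelled knockdown, and Hoxd3 had 0 to 0.588 and 0 to 0.141 CPM. None of the 5 HoxD rows had an interval that left out 1. Hoxc5 overlaps Hoxc6, Hoxc8, Hoxc9 and Hoxc10 on the same strand, so reads of these genes may have been shared between rows or dropped.

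**Figure D4:**
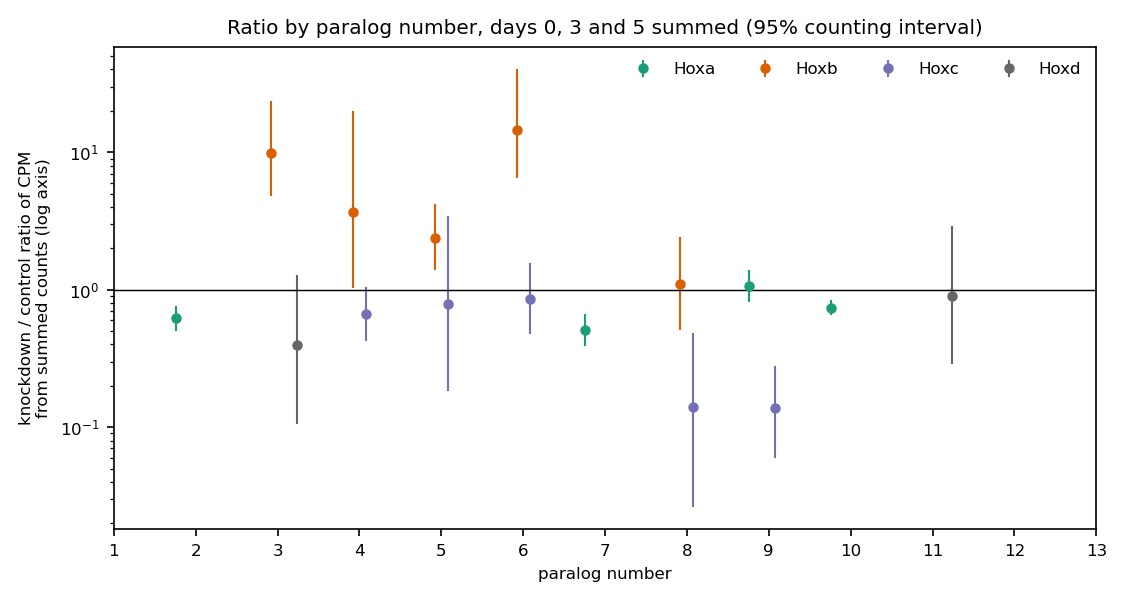
Ratio of CPM, libraries labelled knockdown over control, from counts summed over days 0, 3 and 5, on a log axis against paralog number. The 16 Hox genes drawn have at least 10 summed counts and are coloured by cluster, and lines are 95% intervals of counting error. HoxB paralogs 3 to 6 lie above 1, and HoxA paralogs 2, 7 and 10 and HoxC paralogs 8 and 9 lie below it.

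Genes of the same paralog number in different clusters had unequal ratios, though in no pair compared did both intervals leave out 1 on opposite sides. Hoxb6 had a ratio of 14.5 and Hoxc6 one of 0.856, and their intervals (6.45 to 40.4 and 0.473 to 1.56) do not meet, nor do they without control day 3 replicate 2. For paralog 4, the intervals of Hoxb4 (1.03 to 20.02) and Hoxc4 (0.426 to 1.05) touch, and without that library they are apart (1.17 to 46.1 and 0.434 to 1.10). For paralog 8, Hoxb8 (0.507 to 2.43) and Hoxc8 (0.0262 to 0.482) were apart, but without control day 3 replicate 2 their intervals (0.619 to 3.67 and 0.0329 to 0.673) overlap. For paralog 9, Hoxa9 (0.809 to 1.40) and Hoxc9 (0.0593 to 0.280) were apart, and remained so without that library (0.781 to 1.36 and 0.0857 to 0.438). These intervals cover counting error and leave out the spread between replicates, and no test of such pairs was made.

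At single days, whose libraries also make up the average, the calls were fewer. At day 5, Hoxb6 and Hoxb3 passed, where 7.78% of all genes tested did. Control held 1 count of Hoxb6 at that day against 56 in the libraries labelled knockdown, a ratio of 44.5 (95% interval 7.67 to 1790, counting error only; edgeR adjusted p = 0.0111). For Hoxb3 the counts were 3 and 54, a ratio of 14.3 (4.64 to 71.6, edgeR adjusted p = 0.0365). Neither passed without either day 5 control or knockdown day 5 replicate 2, which leave 1 library in a group. No Hox gene passed at day 0 or day 3 with edgeR, where 7.09% and 12.6% of all genes did. At each of these days 4 of the 10 had an unadjusted p under 0.05. The share of all genes under that unadjusted level was not counted, so nothing about Hox genes can be read from it. DESeq2 called 0 Hox genes at day 0 and 1, Hoxc9, at day 3, where it called 1469 and 2804 of all 13130 genes. Without control day 3 replicate 2, edgeR called 3 at day 0 (Hoxa10, Hoxb3 and Hoxb6) and 1 at day 3 (Hoxb6), where 28.7% and 21% of all genes passed. With the replicate block, Hoxb3 passed at day 3 (log2 difference 2.91 ± 0.80 SE, edgeR adjusted p = 0.0463).

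Both libraries labelled knockdown lay beyond both controls at each of days 0, 3 and 5 for 3 Hox genes, higher for Hoxb3 and Hoxb6 and lower for Hoxa10. This held for 23.2% of the genes tested, 13.7% higher and 9.55% lower. At day 10, with 1 library per condition and no replicate, the ratio was 5.21 (95% interval 1.94 to 17.6) for Hoxb6, 3.12 (1.34 to 8.10) for Hoxb3, 6.80 (1.99 to 36.0) for Hoxb5, 0.708 (0.550 to 0.909) for Hoxa10 and 0.462 (0.268 to 0.771) for Hoxa7. Each lies on the same side of 1 as at the earlier days. Hoxa9 had 0.700 there, with an interval of 0.386 to 1.24 that takes in 1.

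No tested Hox gene changed detectably from day 0 to day 5 in either condition. Days 3 and 10 were not tested against other days within a condition. Between days 0 and 5, edgeR called 0 of the 10 in control and 0 in the libraries labelled knockdown, none had an unadjusted p under 0.05, and DESeq2 and the other alternatives called 0 as well. Of all genes, 8.13% and 2% passed in those comparisons, which share the day 0 and day 5 libraries with the comparisons between conditions. The joint test of whether the difference between conditions varied over days 0, 3 and 5 called 0 Hox genes, with none under 0.05 unadjusted and 0 with DESeq2, against 0.998% of all genes. Hoxb6 had 20 summed counts on day 0, 34 on day 3 and 56 on day 5 in the libraries labelled knockdown, and a log2 difference of 1.31 ± 0.65 (SE, edgeR adjusted p = 0.484) from day 0 to day 5.

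Noncoding RNAs of the clusters were read beside their neighbours. The noncoding RNA Hotairm1 of the HoxA cluster was among the 3.17% of tested genes that lay lower without overlap under the knockdown label. It had 0.670 to 1.20 CPM in the 7 control libraries and 0 to 0.336 CPM in the 7 labelled knockdown. Its log2 difference was -2.65 ± 0.50 (SE, edgeR adjusted p = 0.00383), and it passed in all 21 alternatives. The libraries keep strand, but the strand setting of the counting is not given, so reads of genes that overlap on opposite strands cannot be told apart with certainty. This holds for Hotairm1, for Hoxa7 with Hoxaas3, Hoxb3 with Hoxb3os, and Hoxb5 and Hoxb6 with Hoxb5os. Hoxb3os had 0.139 to 2.77 CPM in control and 0.835 to 2.96 CPM in the libraries labelled knockdown (log2 difference 1.12 ± 0.40 SE, edgeR adjusted p = 0.0627, and 0.00391 without control day 3 replicate 2). Hoxb5os held at most 2 counts in any library. Of 11 such RNAs with a row, 3 could be tested, and 0 rose and 1 fell in the reported fit (33.3%, against 26.9% of all genes).

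Genes that flank the clusters were called at a share near that of all genes. Of 26 listed, 19 were tested, 4 rose and 0 fell (21.1%, median log2 difference -0.02 against -0.00319 over all genes). The share of all genes was 26.9%. Without control day 3 replicate 2, 5 rose and 5 fell (52.6%, against 47.1% of all genes), and with the replicate block 4 rose and 1 fell. Nfe2l1, a stress-response factor on the HoxB side, rose by 0.44 ± 0.09 (log2, SE, edgeR adjusted p = 0.00450), while Cbx1 and Snx11 on the same side had -0.17 ± 0.13 and -0.13 ± 0.19 and did not pass. On the HoxC side, Nfe2 rose by 1.78, Calcoco1 by 0.61 and Cbx5 by 0.48. On the HoxA side, Skap2 and Snx10 had 0.11 ± 0.11 and -0.02 ± 0.13 and did not pass.

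Of the 12 Hox partner genes listed, all tested, 3 rose and 1 fell (33.3%, against 26.9% of all genes). The counts were 4 and 5 without control day 3 replicate 2 (75%, against 47.1% of all genes), and 4 and 2 with the replicate number as a block. Pbx4, a member of the Pbx family, had 2 counts in 1 control library and 0 in the other 6, and 0.353 to 1.74 CPM in the libraries labelled knockdown (edgeR adjusted p = 0.00168). It could enter the test only through the libraries labelled knockdown, where it was high. The abundant partners were near level: Pbx3 had a log2 difference of -0.21 ± 0.11 and Meis2 one of -0.22 ± 0.16, neither past the test. Pbx2 rose by 0.41 and Pbxip1, a Pbx-binding inhibitor, by 0.65, and Tgif2, a repressor of the homeobox class that holds Pbx and Meis, fell by 1.68 on the log2 scale (edgeR adjusted p = 0.000171).

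Polycomb genes, which silence Hox clusters, gave 6 rises and 2 falls among 31 tested (25.8%, median log2 difference 0.04). Without control day 3 replicate 2 the counts were 10 and 7 (54.8%). Phf19, a subunit that guides Polycomb complex PRC2, rose by 1.75 (edgeR adjusted p = 0.000335), Phc3 by 0.90 and Cbx7 by 0.97, and Phc1 fell by 0.66. The Trithorax genes and H3K27 demethylases gave 1 rise (Ash2l, 0.39) and 2 falls (Wdr5, -0.71, and Kdm6b, -0.33) among 17 tested (17.6%, median -0.01), 4 and 4 without that library (47.1%), and 2 and 2 with the replicate block. The shares of all genes were 26.9%, and 47.1% without that library. No test of either list against all genes was made.

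Among genes that induce Hox expression in the embryo, 5 rose and 4 fell of 15 tested (60%, median -0.08, against 26.9% of all genes). Without control day 3 replicate 2 the counts were again 5 and 4, while the share of all genes was 47.1%. Those that moved belong to retinoic acid handling, to the trunk signal Gdf11 and to Gmnn. Crabp2, which carries retinoic acid to the nucleus, lay between 26.6 and 189 CPM in control and between 302 and 818 CPM in the libraries labelled knockdown (log2 difference 2.49 ± 0.17 SE, edgeR adjusted p = 6.96e-06). The conditions did not overlap. The receptor Rarg rose by 0.74 and Gdf11 by 0.63. The Cdx genes, which activate trunk Hox genes, were at or near 0: Cdx1 reached at most 0.141 CPM and Cdx2 at most 0.112 CPM in any library.

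Other position factors showed the setting of this low Hox code. Some factors of the head and general limb mesenchyme were high per length, with median RPKM in control and in the libraries labelled knockdown of 78.7 and 64.7 for Prrx1, 38.8 and 32.4 for Dlx5, and 37.3 and 56.0 for Shox2. Others of the head list were low, with medians of 0.63 and 0.27 RPKM for Dlx3, 0.05 and 0.22 for Lhx8, and 0 on both sides for Pax7. The limb-type genes Tbx5, Pitx1 and Tbx4 stayed at or under 0.441 CPM in every library. Of the head list, 6 rose and 5 fell of 29 tested (37.9%, against 26.9% of all genes), and 8 and 9 without control day 3 replicate 2 (58.6%, against 47.1%), the falls including Dlx1 (log2 difference -0.77) and Otx1 (-1.06). Of the limb and trunk list, 2 rose (En1, 0.57, and Shox2, 0.55) and 1 fell (Tbx18, -0.55) of 9 tested (33.3%), with the same counts without that library.

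Markers of other cell types also moved with the condition. Epithelial markers summed to 0.643 to 7.76 CPM in control and 9.87 to 51.7 CPM in the libraries labelled knockdown, with both tested members higher (Krt14 and Cdh1) and Krt5 under 10 counts in every library. Muscle markers summed to 1.09 to 4.70 CPM and 6.19 to 13.0 CPM, with Des and Acta1 higher and Myog under 10 counts. Each of these lists had only 2 tested members. Averaged over days 0, 3 and 5, 26.9% of all genes tested differed and 15% were higher. The part of the epithelial and muscle markers in the HoxB difference was not tested. Haematopoietic markers (0.467 to 2.35 and 0.353 to 1.57 CPM, with Ptprc, Csf1r and Adgre1 under 10 counts), adipocyte markers (0 to 2.50 and 0.283 to 1.10 CPM) and endothelial markers (0.257 to 0.718 and 0.421 to 2.38 CPM) were low on both sides. The endothelial marker tested, Pecam1, had a log2 difference of 1.49 ± 0.51 (SE, edgeR adjusted p = 0.0553) and passed with the replicate block (1.48, edgeR adjusted p = 0.0356) and without control day 3 replicate 2 (2.75, edgeR adjusted p = 0.00546). Chondrocyte markers summed to 155 to 379 CPM and 215 to 348 CPM, osteoclast markers to 41.0 to 116 CPM and 39.8 to 168 CPM, and neural crest and glial markers to 3.55 to 23.2 CPM and 3.55 to 10.3 CPM.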

How the data were processed

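Polyadenylated RNA of 14 MC3T3-E1 libraries was sequenced. The authors deposited raw read counts for 24346 genes and RPKM values for 24340. Per the submitters' processing notes, bcl2fastq, TopHat2, edgeR and build GRCm38 were used, while the counter, its strand setting and the annotation were not given in these sources. Coordinates come from GENCODE M21 (GRCm38) by gene identifier. Promoter windows come from RefSeq.

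Tested were the 13130 genes that reached 10 counts in 2 or more libraries (11216 were left out), in 1 fit with 8 group means and 6 residual degrees of freedom (edgeR 4.0.16, R 4.3.3, trimmed mean of M values, robust quasi-likelihood F test). The Benjamini-Hochberg adjustment ran over every tested gene, and 0.05 was the threshold. Day 10 was described only. CPM are counts relative to the scaled library size. Ratios of summed counts have exact 95% intervals that cover counting error alone, and 1 read was worth 0.0421 to 0.147 CPM. All replicate pairs differed by more than sampling noise. The tests were first tested on simulated data. Alternatives were DESeq2 1.42.0 (size factors, and its test), other filters, limma 3.58.1 on log2(RPKM + 1) and log2(RPKM + 0.1), a replicate block, and fits without days 3 or 10 or a single replicate.

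Same-numbered libraries of the 2 conditions deviated together, with correlations of 0.234, 0.141 and 0.228 at days 0, 3 and 5. The numbers were therefore taken as pairs in the alternative with a replicate block. The reported fit did not use that pairing, and its p-values are unpaired. That pairing comes from the values, and no label states it.

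Values by library or range are given for Hox genes called in a comparison and for the 2 of highest RPKM per cluster. Of each list, counts and up to 4 called genes with the smallest adjusted p are given. Some genes of these sets are not reported here. Hoxa9, Hoxb4, Hoxb8 and Hoxc8, and list members that did not pass, were named after their values were seen. The members and lists were chosen with earlier results of these data known.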

Additional observations from a re-analysis of the deposited data

How the results depend on the processing

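The averaged calls of Hoxb3 and Hoxb6 held in all 21 alternatives, and no alternative called a Hox gene in the comparisons with time or in the joint test. The count of 6 averaged Hox calls ran from 2 to 6 when single libraries were left out. It was 3 without control day 0 replicate 2 or knockdown day 3 replicate 1, and 2 without knockdown day 0 replicate 2, day 3 replicate 2 or day 5 replicate 2. Where a group was left with 1 library, that library was assumed to vary like the other groups. At day 0 the reported fit called 0 Hox genes and 931 of all 13130 genes. There limma with a pseudocount of 0.1 called 1 Hox gene and 824 of all genes. The fit without day 3 called 2 Hox genes and 3707 of all 13003 genes. Leaving out either day 3 control raised both the Hox count and the count of all genes called. At day 3 the reported fit called 0 Hox genes and 1652 of all 13130 genes. DESeq2's test called 1 Hox gene and 2804 of all genes, and no filter 2 and 2827 of 24346. Limma with a pseudocount of 1 called 3 Hox genes and 1703 of all genes, and with 0.1 called 2 and 1649. The replicate block called 1 Hox gene (Hoxb3) and 1864 of all genes. Leaving out either day 3 control raised both counts here too. At day 5 (2 in the reported fit), limma with a pseudocount of 1 called 1, and leaving out single libraries gave 0 to 2, with 0 without either day 5 control or knockdown day 5 replicate 2 and 1 without either day 0 control, either day 3 library labelled knockdown or knockdown day 5 replicate 1. The replicate block gave 5 averaged calls, without Hoxc9, and 2 at day 5, and changed no other Hox call. The log2 difference of Hoxa9 ran from -0.11 to 0.28 when single libraries were left out and turned negative without control day 3 replicate 2 (-0.00895) or knockdown day 3 replicate 1 (-0.11). That of Hoxa2 ran from -0.77 to 0.43 and turned positive without control day 3 replicate 1 (0.43), which leaves the library with 1 Hoxa2 read as the day 3 control. The causes of the other changes were not tested. Depth limits all Hox results: only 10 of 27 rows could be tested, and a count of 0 allows up to 0.126 to 0.441 CPM per library.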
